A study of Homo sapiens with 4 samples.

Results

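The 7 replication-dependent histone H3 genes H3C1, H3C2, H3C3, H3C4, H3C6, H3C7 and H3C8 lie in the histone cluster on the short arm of human chromosome 6. Their rows were found in the deposited footprint table by place on GRCh38, 6 through an exon with RefSeq's edges and H3C6 through overlap of the whole row, and are 7 of its 78724 rows and 7 of 31 protein-coding histone rows in the stretch searched, called the window below. Ribosome profiling, the sequencing of RNA fragments protected by translating ribosomes, had been carried out on A375 cells, an established human melanoma line. Of the 4 libraries, 2 came from cells kept for 48 h in medium free of arginine and 2 from cells kept as long in control medium. Both groups are the same line with no other agent named, so they speak for 1 line only. Per the labels, the arginine-free medium was made from a base without amino acids to which glucose, pyruvate and the other amino acids were added. The cells had been grown in DMEM with serum, and the labels do not describe the make-up of the control medium or say whether serum was kept during the 48 h. Separate cultures are not stated for the replicates, and every p below therefore speaks of differences from library to library that could be technical alone.

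Histone H3 is one of the core histones around which DNA is wrapped, and it pairs with H4 before the pair is placed on new DNA. The cluster genes make it while DNA is copied, from short mRNAs without introns that end in a stem-loop in place of a poly(A) tail. H3 and H4 are classically known as the arginine-rich histones, and the tail of H3 carries many of the marks that set chromatin state. The cluster copies have closely related coding sequences. How often a footprint fits more than one of them was not computed here, and values of single copies are uncertain for that reason.

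Total counts were 234766 and 192006 in the arginine-free libraries and 105004 and 217989 in the control libraries, so the shallowest library was a control. Ribosomal RNA was not depleted, per the labels. GRCh37 is the build in the submitters' processing notes, while the rows' places are those of GRCh38. Reads of a gene may thus be missing from its row or stand in another, and the levels of different copies are uncertain for this reason too. In the window, 27 of the 31 histone rows held at least 20 reads. Among melanocytic markers, MITF, SOX10, TYR, PMEL and GPR143 were listed at 0 in every library, and the list summed to 771 and 1043 CPM in arginine-free medium and to 3713 and 2867 CPM in control medium. Nearly all of these sums was MFSD12, with 758 and 999 CPM in arginine-free medium and 3487 and 2621 CPM in control medium. Of that list MFSD12 and TYRP1 were tested, and both were lower (log2 fold change -1.80, SE 0.25 and -5.39, SE 0.75, edgeR adjusted p = 9.1e-05 and 0.000104), TYRP1 having passed the filter on low counts through the control libraries only. CPM here are counts scaled to a common library total, taken over tested rows and multiplied by edgeR's TMM factor. Of the 11 markers of other cell types with a row, 9 were at 0, and the list summed to 26.0 and 6.28 CPM in arginine-free medium and to 0 and 20.5 CPM in control medium. The part of these differences in the values below was not tested.

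The sequences just upstream of the 5 copies that could be tested follow, with that of H3C6, a copy that the filter on low counts removed, for contrast. All 7 genes matched an entry in RefSeq's promoter table (GRCh38.p14). Each line gives the 150 bases before the annotated transcription start on the gene's own strand. Capitals mark CCAAT and TATAAA, searched on both strands, so that ATTGG and TTTATA are marked as well. On H3C7 TATAAA and its reverse complement overlap.
H3C2, chr6:26032100-26032249, minus strand: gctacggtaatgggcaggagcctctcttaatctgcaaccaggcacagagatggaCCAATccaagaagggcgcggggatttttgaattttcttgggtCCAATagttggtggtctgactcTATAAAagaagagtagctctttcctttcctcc
H3C8, chr6:26271414-26271563, minus strand: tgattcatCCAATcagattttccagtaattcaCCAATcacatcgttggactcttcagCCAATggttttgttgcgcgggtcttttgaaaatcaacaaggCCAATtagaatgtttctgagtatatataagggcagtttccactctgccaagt
H3C3, chr6:26045234-26045383, plus strand: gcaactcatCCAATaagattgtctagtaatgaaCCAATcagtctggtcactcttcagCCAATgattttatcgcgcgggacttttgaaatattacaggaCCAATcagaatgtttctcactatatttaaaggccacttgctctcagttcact
H3C7, chr6:26250636-26250785, minus strand: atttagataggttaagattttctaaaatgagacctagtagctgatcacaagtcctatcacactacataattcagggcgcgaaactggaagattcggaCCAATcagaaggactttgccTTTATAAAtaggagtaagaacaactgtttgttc
H3C1, chr6:26020301-26020450, plus strand: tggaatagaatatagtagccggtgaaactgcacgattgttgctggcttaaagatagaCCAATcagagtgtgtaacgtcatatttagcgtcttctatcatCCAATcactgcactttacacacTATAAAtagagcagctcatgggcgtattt
H3C6, chr6:26224985-26225134, plus strand: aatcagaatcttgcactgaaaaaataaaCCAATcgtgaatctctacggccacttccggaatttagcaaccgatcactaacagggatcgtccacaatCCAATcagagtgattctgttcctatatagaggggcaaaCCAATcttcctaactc

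The 6 upstream sequences shown each hold a forward CCAAT that starts between 50 and 55 bases before the transcription start, and so does the H3C4 entry at its own row's start. RefSeq holds 9 entries for the 7 genes, and the other two, a second start each for H3C4 and H3C6, have no CCAAT at that distance, so that 7 of 9 entries carry it. A CCAAT at that distance stood in 1.26% of the 35116 RefSeq entries, and a CCAAT anywhere in the 150 bases in 23.5% of them. This distance was chosen after the positions were seen. H3C3 and H3C8 carry 4 CCAAT each, at 141, 117, 93 and 52 bases before the start on H3C3 and at 142, 118, 93 and 52 on H3C8, and 60.7% of their 150 bases are the same. TATAAA was found on H3C2, H3C7 and H3C1, on the reverse strand of the H3C4 entry with the CCAAT, and in 6.71% of all entries, and its letters are not in the windows of H3C3, H3C8 and H3C6 shown. A match of letters is a description and not evidence that a factor binds.

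Footprints on the H3 rows were far fewer in arginine-free medium. Over all 7 rows the libraries held 55 and 51 H3 reads in arginine-free medium, against 647 and 1228 in control medium. As CPM these sums were 238 and 320 in arginine-free medium and 6098 and 6298 in control medium. Both control libraries lay far above both arginine-free ones, and the difference was larger than the spread in either group (279 ± 58.1 and 6198 ± 142 CPM, SD, n = 2 each), a ratio of means 22.2-fold lower in arginine-free medium. H3 rows took 0.0234% (95% Wilson interval 0.0180 to 0.0305) and 0.0266% (0.0202 to 0.0349) of all counts in the arginine-free libraries. In the control libraries they took 0.616% (0.571 to 0.665) and 0.563% (0.533 to 0.596). These intervals cover counting error only, and they are too narrow even for that where amplified fragments are not independent molecules. An exact two-sided permutation test over 2 against 2 libraries cannot give a p below 0.333, and the sums gave that value. Libraries of whole cultures do not tell fewer cells with these mRNAs from fewer footprints per cell, and no RNA level was set beside the footprints here. Without H3C2, the row with most reads, the sum was 17.9-fold lower.

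Rows were tested with edgeR's quasi-likelihood test over the whole table, with p-values adjusted by Benjamini-Hochberg over 2526 tested rows and a threshold of 0.05. Of the 7 H3 rows, 5 could be tested and all 5 fell, while H3C4 and H3C6 were removed by the filter on low counts. That filter asked for 48.8 CPM of all counts in at least 2 of the 4 libraries, and each of these rows reached it in 1. Of all tested rows 16.9% were called lower and 16.0% higher, with a median log2 fold change of -0.03. Both arginine-free libraries lay below both control libraries in all 7 H3 rows, as in 34.2% of tested rows. DESeq2 also called the 5 lower, and it called 5.51% of the rows that it gave an adjusted p. H3C1, H3C2, H3C7 and H3C8 reached that minimum in both libraries of the control group and in at most 1 arginine-free library. They were tested because they were high there, and their joint count is no added support. H3C3 reached the minimum in all 4 libraries.

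H3C2 (Geneid ENSG00000286522.2, chr6:26031589-26032099, minus strand, 1 exon of 511 bases) held most reads of the 7. It had 4 and 10 reads in arginine-free medium, against 193 and 397 in control medium, or 17.3 and 62.8 CPM against 1819 and 2036 CPM. The control libraries were close to each other, while the arginine-free libraries differed several-fold at very low counts. The fitted log2 fold change was -5.69 (SE 0.37, edgeR adjusted p = 1.14e-07), which is 51.7-fold lower. That fold depended on the arginine-free library used, and was 29.5 when arginine-free replicate 1 was left out and 103 when replicate 2 was, with the call kept in both.

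H3C8 (ENSG00000273983.2, chr6:26270918-26271413, minus strand, 496 bases) had 5 and 3 reads in arginine-free medium, against 89 and 193 in control medium. As CPM these were 21.7 and 18.8 in arginine-free medium, against 839 and 990 in control medium, and the groups were far apart with little spread within either. The log2 fold change was -5.44 (SE 0.33, edgeR adjusted p = 7.65e-08), or 43.4-fold lower, and it stayed between -5.67 and -5.28 over 13 alternative settings.

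H3C3 (ENSG00000287080.2, chr6:26045384-26045869, plus strand, 486 bases) had the highest mean CPM of the 7 in arginine-free medium, though within the spread of H3C7, which had as many reads in replicate 2. It had 17 and 15 reads there, against 195 and 343 in control medium, or 73.6 and 94.2 CPM against 1838 and 1759 CPM. Both pairs of libraries agreed within their group, and the row was 21.6-fold lower in arginine-free medium (log2 fold change -4.43, SE 0.26, edgeR adjusted p = 6.4e-08). An unnamed row on the opposite strand (ENSG00000299111.1) has an exon 217 bases beyond the end of H3C3 and held 1 and 4 reads in arginine-free medium, against 14 and 37 in control medium. That row, which passed the filter through the control libraries only, also fell (log2 fold change -3.61, SE 0.59, edgeR adjusted p = 0.000414). Counting without strand cannot say from which gene such reads come. Nor can rows placed on GRCh38 while the notes name GRCh37. Whether this row held reads of H3C3 or H2BC3 was not tested, so its fall is no separate result.

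H3C7 (ENSG00000277775.2, chr6:26250142-26250635, minus strand, 494 bases) had 11 and 15 reads in arginine-free medium, against 123 and 229 in control medium. These were 47.6 and 94.2 CPM in arginine-free medium and 1159 and 1174 CPM in control medium, where the pair was almost equal. It was 17.1-fold lower (log2 fold change -4.09, SE 0.30, edgeR adjusted p = 4.13e-07).

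H3C1 (ENSG00000275714.2, chr6:26020451-26020958, plus strand, 508 bases) was the lowest of the tested copies in control medium. It had 8 and 2 reads in arginine-free medium, against 36 and 45 in control medium, or 34.6 and 12.6 CPM against 339 and 231 CPM. The groups did not overlap, but each had a wide spread. The row was 10.6-fold lower (log2 fold change -3.41, SE 0.44, edgeR adjusted p = 5.74e-05), and 19.9-fold when arginine-free replicate 1 was left out and 7.48-fold when replicate 2 was.

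**Figure D1:**
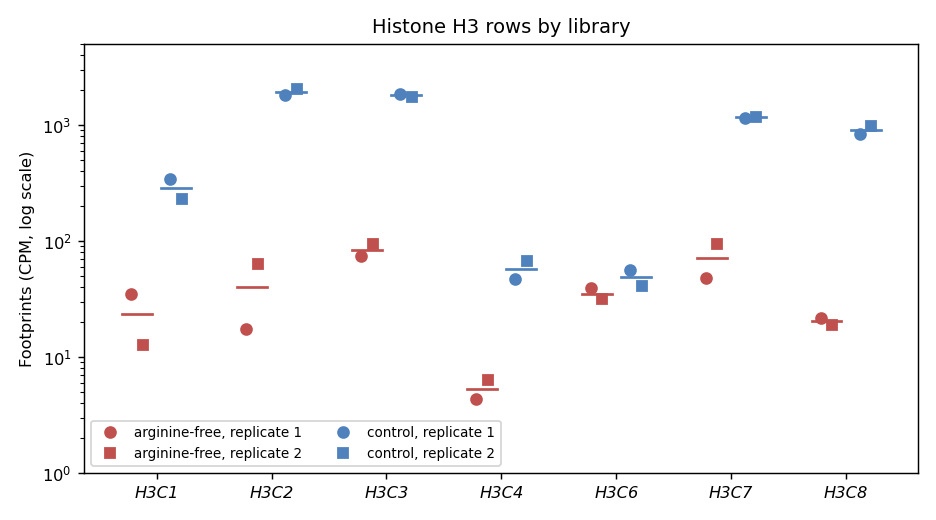
Footprints on the 7 H3 rows, as CPM on a log scale, with arginine-free libraries in red left of control libraries in blue. Points are single libraries (circle for replicate 1, square for replicate 2) and bars are means of 2. H3C3 averages 83.9 CPM in arginine-free and 1798 CPM in control medium, while H3C6 averages 35.2 and 48.8 CPM.

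H3C4 and H3C6 were listed and not tested. The H3C4 row (ENSG00000197409.9, chr6:26195164-26197286, minus strand) had 1 and 1 reads in arginine-free medium, against 5 and 13 in control medium. By total counts that is 11.9-fold lower, with an exact 95% counting interval from 2.85 to 106. Of the 503 bases of its short exon, from 26196784 to 26197286, 486 are shared with exons of other rows, and the header's counting command has no option for reads that overlap several rows. Such reads are then left uncounted, so this row holds little of what H3C4 may have had. In an edgeR fit with no filter on low counts H3C4 was lower (log2 fold change -3.26, SE 0.86, edgeR adjusted p = 0.00298), and it did not pass without control replicate 1 or without arginine-free replicate 1 (edgeR adjusted p = 0.0883 and 0.102).

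The H3C6 row (ENSG00000274750.3, chr6:26224199-26227473, plus strand) held as many reads in one group as in the other, unlike the other copies. It had 9 and 5 reads in arginine-free medium and 6 and 8 in control medium, or 39.0 and 31.4 CPM against 56.5 and 41.0 CPM. The libraries do not overlap in CPM, but 14 reads in each group leave the ratio of arginine-free to control by total counts at 0.757, with an exact 95% counting interval from 0.334 to 1.71. With no filter its log2 fold change was -0.29 (SE 0.62, edgeR adjusted p = 0.799). The reads thus allow anything from 2.99-fold lower to 1.71-fold higher, and no difference was detectable at this depth. Its row is 2679 bases long in 3 exons, of which the exon from 26225135 to 26225616, the short one at the start shown above, is 482.

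Per kilobase of row, mean levels in control medium were 3772 ± 300.5 CPM for H3C2, 3700 ± 114 for H3C3, 2362 ± 21.8 for H3C7, 1843 ± 215 for H3C8 and 561 ± 151 for H3C1 (SD, n = 2 each). H3C2 and H3C3 did not differ beyond their spread, and each further step down was larger than it. These are steps between rows, and the order of the genes stays uncertain for the reasons given above. H3C4 and H3C6, with long rows, stood at 26.8 and 18.2 CPM per kilobase. In arginine-free medium, again per kilobase, H3C3 had 173 ± 30.0 CPM, H3C7 144 ± 66.7, H3C2 78.4 ± 62.9, H3C1 46.5 ± 30.7 and H3C8 40.8 ± 4.01 (SD, n = 2 each). There each step in the order was smaller than the larger SD of the pair, so the order is not settled. H3C6 had 13.1 ± 2.00 CPM per kilobase there.

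Among the H3 reads, the shares of H3C2 and H3C8 were smaller in arginine-free medium and that of H3C6 was larger. The H3C6 row held 14 reads in each group, so its larger share reflects fewer reads on the other rows. H3C2 gave 7.27% and 19.6% of the H3 reads in arginine-free medium, against 29.8% and 32.3% in control medium. H3C6 gave 16.4% and 9.8% in arginine-free medium, against 0.927% and 0.651% in control medium, and H3C8 gave 9.09% and 5.88% against 13.8% and 15.7%. For each of these the groups did not overlap, as was so for H3C4 and H3C7 with smaller differences. H3C3 held its share, with 30.2% ± 1.06 in arginine-free medium and 29.0% ± 1.56 in control medium (SD, n = 2 each), which is no more than the replicates differ. The arginine-free shares rest on 55 and 51 reads, and the 95% Wilson interval for H3C2 reaches up to 17.3% and 32.5% in those libraries, so that the one for replicate 2 takes in both control values. For H3C8 it reaches up to 19.6% and 15.9% in the arginine-free libraries and takes in both control values in each, so its smaller share is within counting error. The interval for H3C6 starts at 8.86% and 4.26% there and ends at 2.01% and 1.28% in the control libraries. The exact two-sided permutation p was 0.333 for H3C2, H3C6 and H3C8, the lowest this design allows.

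**Figure D2:**
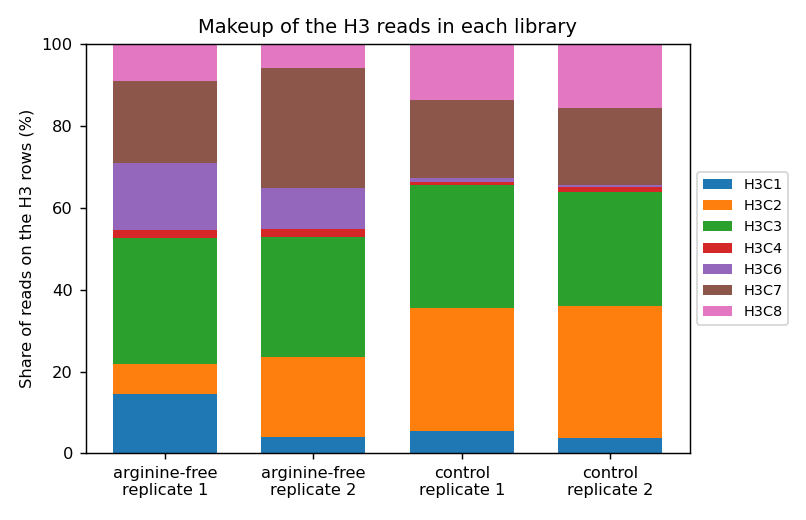
Share of the reads on the 7 H3 rows that each row held, in percent, as stacked bars that sum to 100 in each library, with the arginine-free libraries at the left. H3C2 takes 7.27% and 19.6% in arginine-free libraries against 29.8% and 32.3% in control libraries, and H3C6 is wider in the arginine-free bars.

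H3 was set beside the other histone classes of the same window, where a ratio within a library needs no scaling. In control medium the H3 rows held about as many reads as the H2B rows and nearly as many as the H4 rows, and in arginine-free medium they held far fewer than either. H3 reads per H4 read, H4 being the partner of H3 in the nucleosome core, were 0.0812 and 0.0794 in arginine-free medium and 0.899 and 0.887 in control medium. The replicates of each medium were nearly equal, and the ratio was 11.1-fold lower in arginine-free medium. That fold rests in part on H4C5, which was not called lower and held 334 and 358 of the 677 and 642 H4 reads there. H3 per H2B read was 0.299 and 0.340 in arginine-free medium and 1.00 and 1.08 in control medium, 3.26-fold lower. H3 per H2A read was 0.264 and 0.357 in arginine-free medium and 1.23 and 1.41 in control medium, 4.28-fold lower. H3 per read of the linker histone H1 was 0.0787 and 0.0929 in arginine-free medium and 0.473 and 0.505 in control medium, 5.72-fold lower. All 4 ratios differed by more than the spread between replicates. The exact two-sided permutation p of each was 0.333, the lowest possible, and 0.333 after Benjamini-Hochberg adjustment over the 4.

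**Figure D3:**
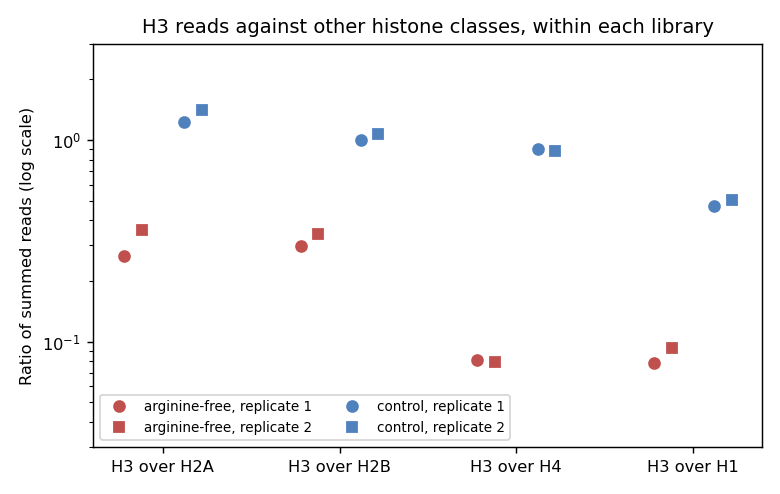
Reads summed over the H3 rows divided by reads summed over the H2A, H2B, H4 and H1 rows of the window, on a log scale, in each library (arginine-free red at the left, control blue at the right, circle for replicate 1 and square for replicate 2). H3 over H4 is 0.0812 and 0.0794 in arginine-free medium against 0.899 and 0.887 in control medium.

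Summed CPM by class show the same order. H2A rows had 899.5 ± 1.85 CPM in arginine-free and 4717 ± 339 CPM in control medium, and H2B rows 869.5 ± 103 and 5965 ± 161 CPM (SD, n = 2 each). H4 rows had 3482 ± 778 CPM in arginine-free and 6942 ± 221 CPM in control medium, and H1 rows 3238 ± 298 and 12682 ± 311 CPM (SD, n = 2 each). Of 20 tested rows of these other classes, 7 passed the filter through the control libraries only and 13 in both groups. Of the 20, 19 were lower and 1, H4C5, did not pass, at 0.09 (SE 0.24, edgeR adjusted p = 0.815). The other rows with most reads were H1-2 at -2.09 (SE 0.23), H1-4 at -1.38 (SE 0.24) and H1-3 at -2.51 (SE 0.24), all genes of the linker histone and all lower (edgeR adjusted p = 1.41e-05, 0.000621 and 3.28e-06). H4C5 held 334 and 358 of the 677 and 642 H4 reads in arginine-free medium, against 188 and 332 of 720 and 1384 in control medium. The median log2 fold change of tested rows was -4.43 for H3, -2.79 for H2A, -3.11 for H2B, -1.81 for H4 and -2.30 for H1, against -0.03 over all tested rows. H3C1, H3C2, H3C7 and H3C8 passed the filter through the control libraries only, and H3C4 and H3C6 are not in the H3 median. The filter thus bears on the classes to different degrees, and its part in these medians was not tested. The ranges overlap, since the H3 rows ran from -5.69 to -3.41 while H2BC3 stood at -4.62, H2AC4 at -4.42 and H2BC9 at -3.51. Of all tested rows 2.14% had a log2 fold change under -3, and 12 of those 54 rows were histone rows of the window, 5 of them H3. Those H3 rows other than H3C3, with H2AC4, H2BC3, H2BC6, H2BC10 and H4C1, passed the filter through the control libraries only. They were tested because they were high there, so the count of 12 adds no support.

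**Figure D4:**
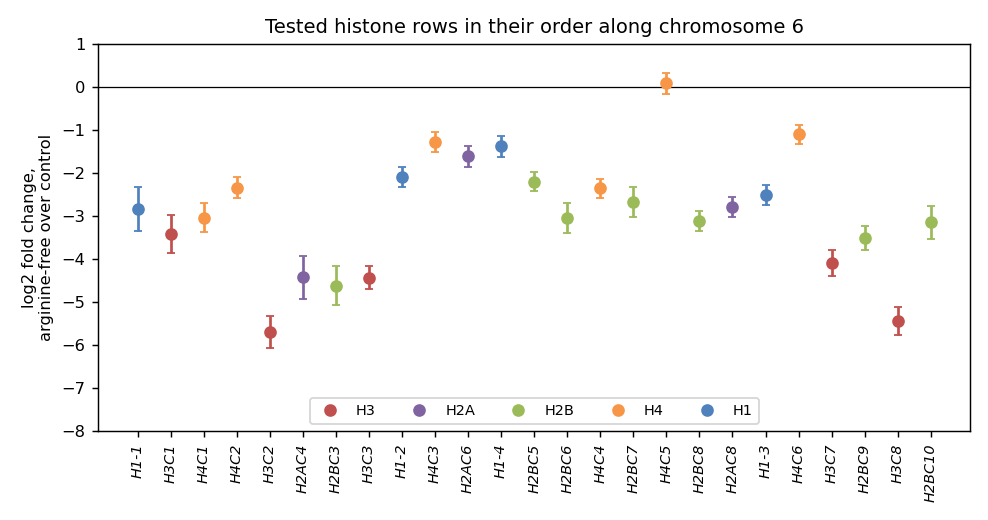
Log2 fold change (arginine-free over control) with its SE for each tested histone row of the window, in order along the chromosome and coloured by class. The H3 rows (red) lie between -5.69 and -3.41, with rows of other classes between them, and H4C5 is at 0.09.

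Along the chromosome, H3C2, H2AC4, H2BC3 and H3C3 follow each other among the tested histone rows, and they changed by -5.69, -4.42, -4.62 and -4.43. The unnamed tested row beside H3C3, at -3.61, starts between H2BC3 and H3C3, and whose reads it held was not tested. H3C7, H2BC9, H3C8 and H2BC10 at the other end changed by -4.09, -3.51, -5.44 and -3.15, and H3C1 stood between H1-1 at -2.83 and H4C1 at -3.04. The rows between these groups, H1-2 to H4C6, ran from -3.11 to 0.09 and hold no tested H3 row. No row named above as H3C1, H3C2, H3C7 or H3C8 shares an exon base with another row, and the nearest exon of another row was 691, 993, 979 and 608 bases away.

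The tested rows whose profile over the 4 libraries lay closest to the mean of the 5 H3 rows were H2BC3, TNFRSF10A, POLR1A, HAUS5 and NDC80, at Euclidean distances of 0.53 to 1.02 in row-centred log2(CPM + 1). The H3 rows themselves lay at 0.27 (H3C3) to 1.61 (H3C1) from that mean. H2BC3, an H2B gene of the same window, had 2 and 3 reads in arginine-free medium, against 36 and 64 in control medium. The row at the place of NDC80, a kinetochore protein, had 5 and 3 against 28 and 59, and that of HAUS5, of the spindle complex augmin, had 6 and 3 against 31 and 84. All 5 passed the filter through the control libraries only. With 4 libraries such likeness says little more than that the fold was alike. Outside the window a row need not hold the reads of the gene at its place. Inside it, too, reads of a gene may be missing from its row or stand in another.

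Genes that act on H3 or its mRNA were read from lists, with that limit on their rows. Of the list for histone mRNA transcription and 3′ end processing, 17 of 18 genes had a row, 9 rows were at 0 and 5 were tested, of which 2 were lower, 1 higher and 2 did not pass. NPAT drives transcription of histone genes at the start of DNA synthesis. The row at its place had 3 and 3 reads in arginine-free medium and 6 and 14 in control medium (log2 fold change -2.05, SE 0.64, edgeR adjusted p = 0.0236). The row at the place of TUT4, a uridyl transferase, had 28 and 31 against 3 and 4 (2.69, SE 0.51, edgeR adjusted p = 0.00126). NPAT passed the filter through the control libraries only and TUT4 through the arginine-free libraries only, so each was tested because it was high in one medium, and these calls add no support. ZNF473, a zinc finger protein of histone 3′ end cutting, stood at -0.93 (SE 0.35, edgeR adjusted p = 0.0558), and CASP8AP2 at -0.53 (SE 0.69, edgeR adjusted p = 0.593).

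Of the H3-H4 chaperones and assembly factors, 4 were tested, and 1 was lower. CDAN1 binds the chaperone ASF1. The row at its place had 21 and 13 reads in arginine-free medium and 35 and 52 in control medium (log2 fold change -1.75, SE 0.32, edgeR adjusted p = 0.00105). CHAF1A, the large subunit of the factor that places new H3-H4 behind the fork, stood at -0.91 (SE 0.53, edgeR adjusted p = 0.208). RBBP7 stood at -0.23 (SE 0.33) and UBN1 at 0.03 (SE 0.48). Like CHAF1A, they did not pass the threshold. CHAF1A and UBN1 met the filter on low counts through the control libraries only.

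Of the DNA replication genes, 22 of 34 rows were at 0 and 4 were tested, of which 1 was lower. TYMS makes thymidylate. The row at its place had 77 and 47 reads in arginine-free medium and 62 and 98 in control medium (log2 fold change -0.77, SE 0.24, edgeR adjusted p = 0.0219). Not past the threshold were UHRF1 at 0.67 (SE 0.33), POLE at 0.96 (SE 0.52) and RRM1 (edgeR adjusted p = 0.235). POLE met the filter on low counts through the arginine-free libraries only, and RRM1 through the control libraries only.

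Of the enzymes that modify H3, 12 were tested, and 1 was lower, 1 higher and 10 did not pass, with a median of -0.02. The row at the place of KMT2A, an H3 lysine methyltransferase, was lower at -1.01 (SE 0.30, edgeR adjusted p = 0.0172). CREBBP, an acetyltransferase, stood at -0.04 (SE 0.22), DOT1L, a methyltransferase of the globular part of H3, at 0.28 (SE 0.31), and the demethylase KDM4B at -0.18 (SE 0.30). Beside these lists, 16.9% of all tested rows were lower and 16.0% higher.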

How the data were processed

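Footprints of A375 cells in arginine-free and control medium, 2 libraries each, were grouped by sample title. The deposited values are raw counts per gene. Per the file headers, featureCounts 2.0.1 had summed exons of GENCODE 47 with no strand option set. Tools listed in the submitters' processing notes are TopHat2, Bowtie2 2.5.2 and cutadapt, and the builds GRCh37 and hg19. Row lengths are those of the deposited table. Rows were named by place against RefSeq's GRCh38.p14 gene table: 38569 rows took a symbol by mutual best overlap, and 28 histone genes of the window through an exon lying exactly between RefSeq edges, which took precedence. No coordinates were converted.

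edgeR 4.0.16 (R 4.3.3) was run with TMM factors, filterByExpr and the quasi-likelihood test. SEs were worked back from the F statistic. H3 rows under 20 reads were to be listed only, and H3C4 (20 reads) and H3C6 (28) were removed by filterByExpr. On simulated counts for 2526 rows, all given the same dispersion of 0.034, 78% of 4-fold and 28% of 2-fold changes were recovered. Among the unchanged rows 5 were called. The real rows need not share a dispersion, so these rates need not hold for them. Alternatives are given in the closing section; DESeq2 1.42.0 was one. The text names all 7 H3 genes, other H3 rows of at least 20 reads (there were none), up to 4 tested members with most reads from each list and the 5 nearest profiles; further histones and the row beside H3C3 were chosen after their values were seen. The members and lists were chosen with earlier results of these data known. A count of 0 allows up to 3 counts, or 12.8 CPM of all rows in the deepest library and 28.6 in the shallowest.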

Additional observations from a re-analysis of the deposited data

How the results depend on the processing

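The 5 tested H3 rows stayed lower and past the threshold in all 64 values from 13 alternatives (RLE, upper-quartile or no factors, TMM without histone rows, nuclear rows only, no filter, at least 50 counts, replicate block, DESeq2 and each library left out). H3C1 had too few reads for the filter at 50. With the replicate block H3C2 stood at -5.69 and H3C1 at -3.53, and 372 rows were lower and 354 higher. In the labels, same-numbered libraries share only that number. Replicate differences in the media correlated at -0.05 over 2526 rows. At such low counts this cannot say whether same-numbered libraries shared a culture or a day. Without its largest row, H3C2, the log2 ratio of the H3 sum was -4.16 (main value -4.47). The log2 differences of H3 over H2B, H4 and H1 were then -1.38, -3.15 and -2.19, against -1.70, -3.47 and -2.52 with it. Leaving out single libraries gave -4.70 to -4.27 for the sum. With the 5 tested rows alone, an alternative added after seeing the data, the sum stood at -4.67. Over all rows 428 were lower and 405 higher. With at least 50 counts (580 rows tested) 146 were lower and 138 higher, and with DESeq2 147 and 162. Leaving out single libraries gave 243 to 389 lower, the fewest without control replicate 2, and 270 to 418 higher. The cause was not tested. Low counts in arginine-free medium limit the size of each fold: H3C8 rests on 8 reads there and H3C4 on 2.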

Other observations

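Histone H3 rows outside the window held almost no reads. Of 12 with a row, 10 were listed at 0 in all libraries, among them H3C11 and H3C12 on chromosome 6 and H3C14 and H3C15 on chromosome 1. The row of H3-3A, a gene for the H3 variant made outside DNA synthesis, had 5 and 3 reads in arginine-free medium and 1 and 2 in control medium, and H3C13 had 1 read in all. These counts are too low to compare, and a row at 0 does not show that its gene had no footprints.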
